A study of Sus scrofa with 6 samples.

Results

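The hemoglobin chains of pig embryos and GATA1, the transcription factor that drives red cell formation, are described here across 6 whole embryos. Members were the transcript rows whose deposited protein description names a hemoglobin subunit, the HBB row and the GATA1 row. With 1 row kept per gene they came to 6 genes, from 8 such rows among 20523 rows in all. Where a gene had several rows, its row was chosen by the read total over all 6 libraries, which mattered for alpha-globin alone, whose 3 rows held 20, 6 and 1 reads. The level of that row is therefore a description. The genotype entered no step of the rule.

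The study compared Large White embryos that carry 2 quantitative trait nucleotides (QTNs) of VRTN on both chromosomes (QQ) with wild-type embryos (qq, here WT). VRTN is a gene tied to the number of thoracic vertebrae. All embryos were 17.5 to 18.0 days post coitum, and 3 libraries of total RNA were made per genotype, with 12.2 M to 13.5 M uniquely mapped reads each (M, mega). Extra-embryonic tissue was taken from each embryo for genotyping, and litter, dam, sex and exact age of single embryos were not given in the sources used here.

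The first red cells of a mammal are made in the blood islands of the yolk sac and enter the embryo once the heart beats. These primitive cells carry embryonic hemoglobin, built from zeta chains of the alpha family and epsilon or related chains of the beta family, and later definitive cells change to alpha and beta chains. GATA1 binds GATA motifs in globin, heme synthesis and red cell membrane genes and is required for both waves. In RNA of whole embryos, fewer red cells and less RNA per red cell cannot be told apart.

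A pair of embryonic globin rows held nearly all globin reads, and their level varied widely between single embryos of the same genotype. The most abundant row (ENSSSCT00000016077) had 38304, 10805 and 15528 reads in WT replicates 1 to 3 and 15769, 1416 and 14953 reads in QQ replicates 1 to 3. Its best protein match was the pig theta chain, an embryonic chain of the beta type, and its KEGG match was the epsilon gene HBE1. It is called the theta-globin row here, and reads could be split between these close relatives. Scaled to length and depth (RPKM, reads per kilobase of transcript, scaled to the mapped reads of the library), it stood at 6169, 1693 and 2323 in WT and 2353, 226 and 2465 in QQ embryos. WT replicate 1 was high and QQ replicate 2 was low, and the other 4 embryos of both genotypes lay between 1693 and 2465 RPKM.

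HBZ (ENSSSCT00000008738), the zeta chain that pairs with embryonic beta-type chains, had the second highest level. Its reads were 15983, 4934 and 7411 in WT and 6587, 598 and 7573 in QQ embryos, or 1464, 439.6 and 631 RPKM against 559, 54.4 and 709.8 RPKM. The same 2 embryos were the extremes, and the groups overlapped. The highest library exceeded the lowest 27.2-fold for the theta-globin row and 26.9-fold for HBZ, in CPM, which scales reads to the library total alone. Within the WT group alone the span was 3.64-fold and 3.33-fold, and within the QQ group it was 10.9-fold and 13.0-fold. The WT mean was 2.02 and 1.92 times the QQ mean. A ratio of means and a span of single libraries are unlike measures, so their sizes are not compared here.

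**Figure D1:**
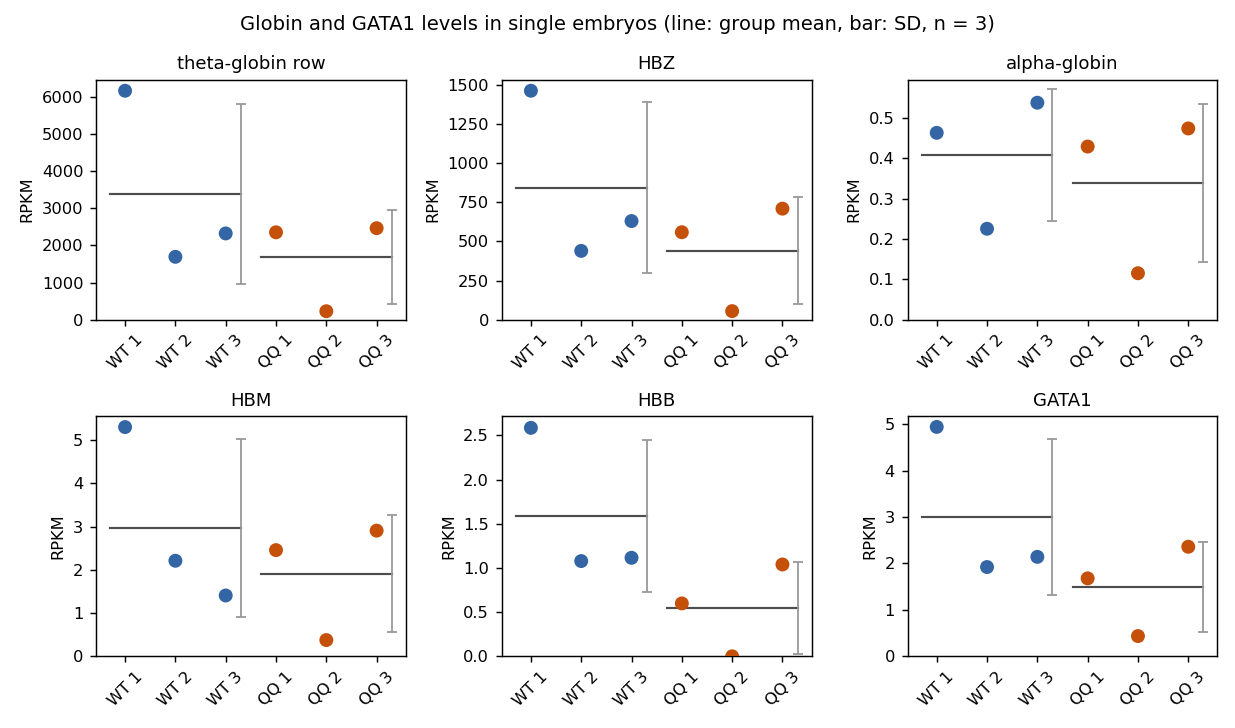
Level in RPKM (vertical axis, from 0) of the 5 globin rows and GATA1 in each of the 3 WT (blue) and 3 QQ (orange) embryos; horizontal lines are group means and bars the SD. QQ replicate 2 is the lowest embryo in all 6 panels, and WT replicate 1 is the highest in every panel except alpha-globin.

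The embryonic chains kept a nearly fixed proportion while their level changed. Each HBZ read was matched by 2.40, 2.19 and 2.10 theta reads in WT replicates 1 to 3, and by 2.39, 2.37 and 1.97 in QQ replicates 1 to 3. The ratio in QQ replicate 2, with the fewest globin reads, lay within the range of the other libraries. Globin rows took 0.435% of all reads in WT replicate 1, 0.0160% in QQ replicate 2 and between 0.123% and 0.185% in the other 4 embryos. The theta-globin row and HBZ made up 99.8% to 99.9% of these reads in every library. Reads covered 99.2% to 99.8% of the 497 bp theta-globin row, and 67.3% to 78.0% of the 874 bp HBZ row.

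The remaining chains were near the limit of detection. HBM (ENSSSCT00000008740), the mu chain of the alpha cluster, had 28, 12 and 8 reads in WT and 14, 2 and 15 reads in QQ embryos (2.97 ± 2.05 and 1.91 ± 1.35 RPKM, SD, n = 3 each). Its groups overlapped, with WT replicate 1 highest and QQ replicate 2 lowest. In the Sscrofa11.1 gene table HBM lies between HBZ and an alpha-globin gene.

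HBB (ENSSSCT00000016076), the adult beta chain, had 28, 12 and 13 reads in WT and 7, 0 and 11 reads in QQ embryos, or 1.59 ± 0.860 and 0.546 ± 0.522 RPKM (SD, n = 3 each). It was the only one of the 6 members whose groups did not overlap, and the lowest WT library exceeded the highest QQ library by 1 read. Over all tested rows the groups did not overlap in 27.9%, and in 9.07% with QQ lower. The 0 of QQ replicate 2 allows up to 0.238 CPM (3 reads), a limit used for each count of 0. On the basis of the 2-sided 95% exact Poisson interval its upper bound was 3.69 reads, and the same intervals of 12 reads (6.20 to 20.96) and 11 reads (5.49 to 19.7) overlap. All these limits cover counting error only. The reads covered 31.0% of the 867 bp HBB row in WT replicate 1, with 28 reads, and 24.6% in QQ replicate 1, with 7 reads. Whether some of them came from the far more abundant theta-globin row, a related beta-type chain, was not tested.

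The chosen alpha-globin row (ENSSSCT00000036448, gene LOC100737768) had 4, 2 and 5 reads in WT and 4, 1 and 4 reads in QQ embryos, below the filter on low counts. Its reads covered 7.09% to 26.5% of 691 bp. The other 2 alpha rows had at most 3 reads in any library. All 3 rows matched the same alpha gene, and reads shared by near-identical copies are left out of a count of uniquely mapped reads, so the level of alpha-globin is uncertain and no difference was detectable at this depth.

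GATA1 shared the highest and the lowest embryo with the embryonic globins, at a far lower level per length. Its row (ENSSSCT00000023255), described as GATA 1 protein, had 90, 36 and 42 reads in WT and 33, 8 and 42 reads in QQ embryos. In RPKM these were 4.94, 1.92 and 2.14 in WT and 1.68, 0.436 and 2.36 in QQ embryos, with means of 3.00 ± 1.68 and 1.49 ± 0.975 (SD, n = 3 each). QQ replicate 3 exceeded WT replicates 2 and 3, so the groups overlapped. HBZ reads per GATA1 read came to 178, 137 and 176 for the WT embryos and 199.6, 74.8 and 180.3 for the QQ embryos. QQ replicate 2 had the lowest ratio, where GATA1 rested on 8 reads (95% exact Poisson interval 3.45 to 15.8).

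No member passed the test of genotype. With edgeR's quasi-likelihood test over 13958 rows, the log2 fold change of QQ against WT was -1.08 ± 0.74 (SE) for the theta-globin row (adjusted p = 0.395) and -1.01 ± 0.74 for HBZ (adjusted p = 0.421). It was -1.09 ± 0.54 for GATA1 (edgeR adjusted p = 0.271) and -1.61 ± 0.71 for HBB (edgeR adjusted p = 0.243, unadjusted p = 0.0478). HBM stood at -0.70 ± 0.64 (edgeR adjusted p = 0.524) and alpha-globin at -0.35 ± 0.65 (edgeR adjusted p = 0.760). All 6 values were below 0, as were 50.3% of all tested rows, and the members come from the same embryos and cell lineage and so are not independent.

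At the adjusted threshold of 0.05 edgeR called 0% of rows in either direction. An unadjusted p under 0.05 was found for 20.3% (2834 rows), and for 9.28% with QQ lower, the class that holds HBB alone among the 6 members. DESeq2 on the same counts called 98 rows higher and 8 lower, or 0.702% and 0.0573%. It called no member, but it gave no adjusted p for HBB, HBM and alpha-globin, which it could therefore not call. Leaving out 1 embryo moved the member values in either direction. Without WT replicate 1 the log2 fold change was -0.36 for the theta-globin row, -0.38 for HBZ, -0.014 for HBM, -1.10 for HBB and -0.55 for GATA1. Without QQ replicate 2 these were -0.56, -0.49, -0.21, -1.03 and -0.65, and alpha-globin turned to 0.058. Over all genes the library farthest from the rest was WT replicate 3, at -61.7 on the first principal component (57.7% of the variance), where the others lay between -9.13 and 29.99. Without it the values were -1.28 for the theta-globin row, -1.17 for HBZ, -1.03 for HBM, -1.80 for HBB and -1.27 for GATA1. Without QQ replicate 3 the values lay farther from 0, at -1.43 for the theta-globin row, -1.50 for HBZ, -1.09 for HBM, -2.39 for HBB and -1.55 for GATA1.

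**Figure D2:**
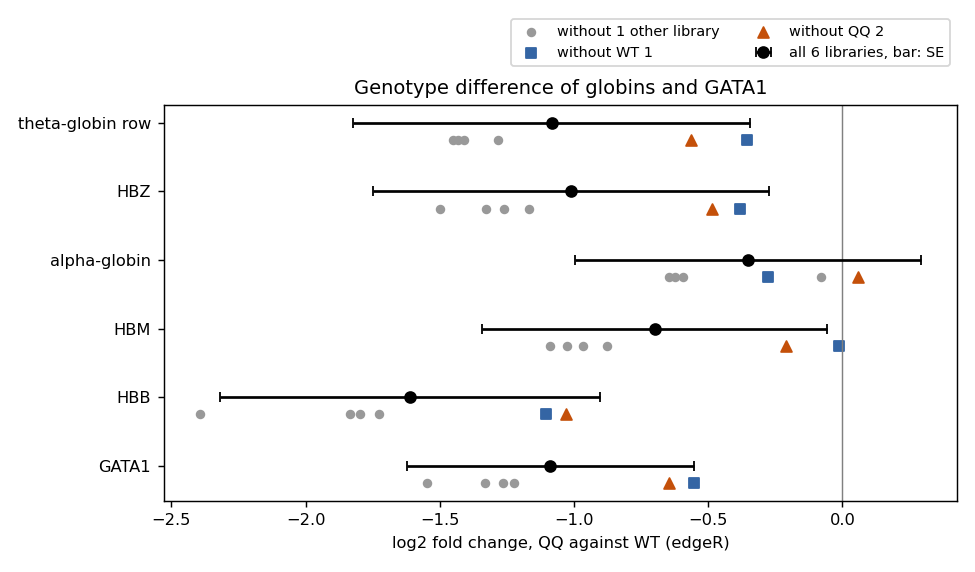
Log2 fold change of QQ against WT (horizontal axis, edgeR) for each member: black points use all 6 libraries with the SE as bar, and the points beneath leave out 1 library each. Values without WT replicate 1 (blue squares) or without QQ replicate 2 (orange triangles) lie nearest to 0 for each member except alpha-globin, where the value without WT replicate 3 is closer than the one without WT replicate 1.

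Few genes varied as widely between these embryos as the embryonic globins did. Over all tested rows the median range between highest and lowest library was 0.68 in log2 CPM, and 4.77% of rows had a range of at least 2, that is 4-fold. The range was 4.87 for the theta-globin row, 4.85 for HBZ, 3.96 for HBB, 3.31 for GATA1 and 2.99 for HBM. A range as wide as that of the theta-globin row or wider was found in 0.0931% of rows, and one as wide as that of GATA1 or wider in 0.502%. HBB and HBM rested on at most 28 reads in any library, and the part of counting error in their ranges was not tested.

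**Figure D3:**
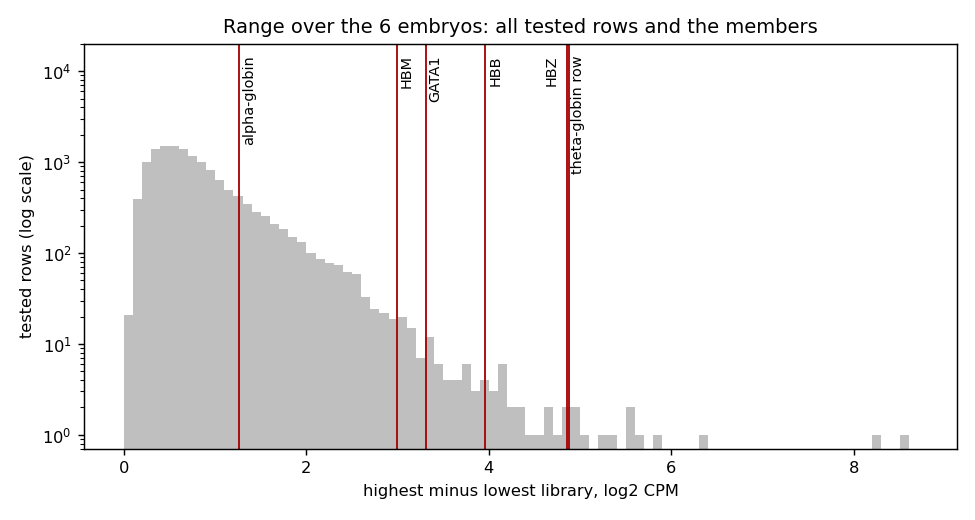
Number of tested rows (vertical axis, log scale) by the difference between the highest and the lowest of the 6 libraries in log2 CPM (horizontal axis); red lines mark the 6 members. The theta-globin row and HBZ lie at 4.87 and 4.85, where few rows are found, and alpha-globin at 1.27.

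The rows nearest in pattern to the theta-globin row and to GATA1 were red cell genes, some of them members. Nearness was the root mean square distance of log2 CPM over the 6 libraries, each row centred on its mean, among 6314 other rows with a symbol and a mean of at least 1 RPKM. HBZ was nearest to the theta-globin row, at 0.11, where the median distance was 1.48. Next came AHSP, the chaperone that binds free alpha-globin, at 0.21, RHCE, a blood group protein of the Rh family, at 0.28, and HBB was at 0.45. AHSP had 176, 70 and 88 reads in WT and 86, 8 and 101 reads in QQ embryos, so its highest and lowest embryos were those of the globins.

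Among the rows nearest to GATA1 were HBB at 0.28, KEL, the Kell blood group protein, at 0.29, ANK1, the ankyrin that ties spectrin to the membrane, at 0.30 and STEAP3, a ferrireductase of iron uptake, at 0.30, where the median was 0.98. ANK1 had 399, 140 and 110 reads in WT and 162, 41 and 194 reads in QQ embryos, again with WT replicate 1 highest and QQ replicate 2 lowest. The theta-globin row came 15th in nearness to GATA1, at 0.55, with a wider range than GATA1.

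**Figure D4:**
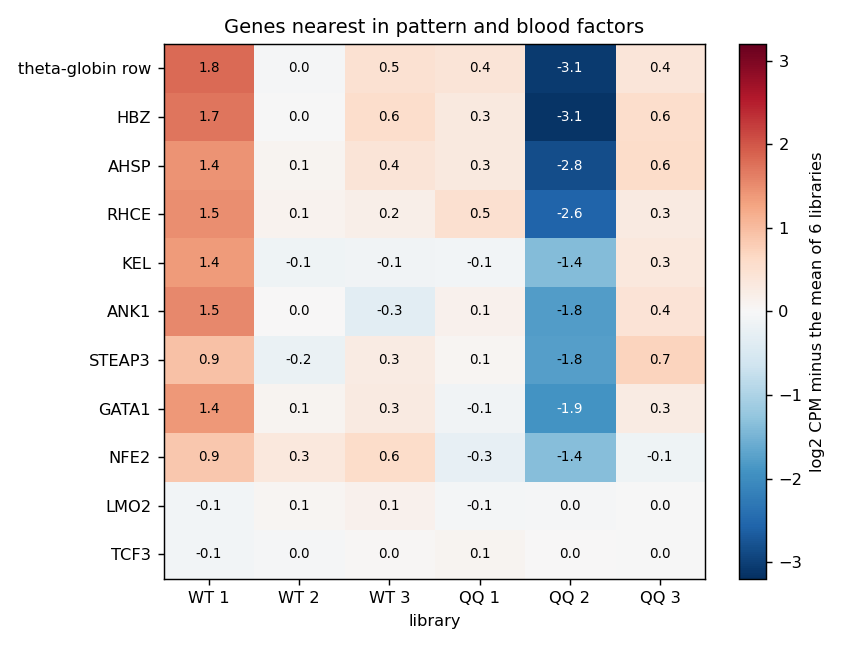
Log2 CPM minus the mean of the 6 libraries (colour and printed value), with single embryos as columns. Shown are the embryonic globins, GATA1, rows among the nearest to the theta-globin row or GATA1, and the blood transcription factors NFE2, LMO2 and TCF3. WT replicate 1 is above and QQ replicate 2 below the mean in each row from the theta-globin row to NFE2, while the ranges of LMO2 and TCF3 are 0.21 and 0.18.

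The wider red cell programme was read from 7 gene lists: globins, blood transcription factors, erythropoietin and KIT signalling, heme synthesis, iron uptake, red cell membrane and red cell cytoplasm. Of 75 tested genes, values were lower for QQ in 57 and higher in 18. The median log2 fold change was -0.26, against -0.0027 over all tested rows. None passed edgeR. An unadjusted edgeR p under 0.05 was found for 13 of the 75, a smaller share than the 20.3% of all tested rows. DESeq2 called none, though among the members in these lists it gave no adjusted p for HBB and HBM. The groups did not overlap in 16 of the 75 (21.3%), against 27.9% of all tested rows. Scaled by library totals alone, 50 of 75 were lower, and 39.5% of all rows were lower in place of 50.3%. Without WT replicate 1 the count was 46 of 75 with a median of -0.062, and without QQ replicate 2 it was 48 of 75 with a median of -0.11.

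WT replicate 1 was highest and QQ replicate 2 lowest in 26 of these 75 genes. The pattern was taken from the globins and GATA1 after their values were seen, so 5 of the 26 restate it. Without the members it was found in 21 of 70 genes (30%), against 2.35% of all tested rows. In the membrane list 9 of 17 tested genes had it (among them SPTB, ANK1, SLC4A1, RHCE, ADD2, KEL and ERMAP), and values were lower for QQ in 15 of 17 (median -0.28). The median was -0.029 with 10 of 17 lower without WT replicate 1, and -0.15 with 11 of 17 lower without QQ replicate 2. Leaving out any other embryo moved the median away from 0, to between -0.68 (without QQ replicate 3) and -0.51 (without QQ replicate 1). The 3 most abundant members, EPB41, BCAM and DMTN, encode proteins used in many cells and had ranges of 1.18, 0.69 and 0.93 in log2 CPM. EPB41, protein 4.1 of the membrane skeleton, had 46.4 ± 14.9 RPKM across WT and 69.5 ± 7.69 RPKM across QQ embryos (SD, n = 3 each; edgeR adjusted p = 0.233). GYPC, glycophorin C, had a log2 fold change of -0.79 ± 0.32 (edgeR adjusted p = 0.233).

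Blood transcription factors did not share a direction, with 8 of 16 tested genes lower and 8 higher in QQ embryos (median -0.011). NFE2, a partner of small MAF proteins at globin enhancers, had a range of at least 2, as did GATA1 and SOX6. It had 125, 87 and 104 reads in WT and 60, 27 and 63 reads in QQ embryos, and its groups did not overlap. Its log2 fold change was -1.15 ± 0.32 (edgeR adjusted p = 0.233, unadjusted p = 0.00531). NFE2 was the 1 lower gene among 6 of this list whose groups did not overlap. The others, SOX6, FOXO3, KLF3, ZBTB7A and TCF3, were higher for QQ. Such separation is common: it held for 27.9% of all tested rows, and for 9.07% with QQ lower. SOX6 had 49, 57 and 16 reads in WT and 73, 61 and 74 reads in QQ embryos (log2 fold change 0.69 ± 0.38, edgeR adjusted p = 0.309). FOXO3 had 282, 312 and 128 reads in WT and 371, 400 and 507 reads in QQ embryos (0.75 ± 0.30, edgeR adjusted p = 0.233). In both the lowest embryo was WT replicate 3, and SOX6, FOXO3 and ZBTB7A are named here after their values were seen. LMO2 and TCF3, which bridge and bind E-box sites in blood and other cells, had WT means of 32.1 ± 1.82 and 61.8 ± 0.986 RPKM and QQ means of 32.5 ± 1.66 and 69.3 ± 0.914 RPKM. KLF3, a repressor of the Krueppel-like family, had a log2 fold change of 0.30 ± 0.11 and STAT5B, a signal transducer of the erythropoietin receptor, of -0.13 ± 0.11, and neither passed edgeR (adjusted p = 0.233 and 0.489). KLF1, the erythroid activator of beta-globin, named here after its values were seen, had 92, 47 and 37 reads in WT and 47, 28 and 63 reads in QQ embryos.

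In the signalling list 2 of 4 tested genes were lower. EPOR, the erythropoietin receptor, had 146, 101 and 103 reads in WT and 111, 64 and 135 reads in QQ embryos, again with WT replicate 1 highest and QQ replicate 2 lowest. EPO, its ligand, had a log2 fold change of -0.69 ± 0.36 (edgeR adjusted p = 0.295). KITLG, the ligand of the stem cell receptor KIT, went the other way, from a WT mean of 6.23 ± 3.59 to a QQ mean of 14.3 ± 3.90 RPKM (edgeR adjusted p = 0.233), with its lowest value in WT replicate 3. KIT stood at 28.3 ± 6.73 and 37.7 ± 6.72 RPKM (edgeR adjusted p = 0.299).

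Heme synthesis genes were lower for QQ in 12 of 14 tested cases (median -0.28), and none of them passed edgeR. UROD, uroporphyrinogen decarboxylase, had a WT mean of 39.2 ± 5.82 RPKM and a QQ mean of 29.1 ± 3.08 RPKM (edgeR adjusted p = 0.233). Its highest library was WT replicate 3, not the embryo with the most globin. FECH, which inserts the iron, had its highest value in WT replicate 1 and its lowest in QQ replicate 2, and SLC25A39, a mitochondrial carrier, had a log2 fold change of -0.37 ± 0.17 (edgeR adjusted p = 0.256). ALAS2, the erythroid enzyme of the first step, named after its values were seen, had 22, 10 and 6 reads in WT and 7, 0 and 12 reads in QQ embryos and fell below the filter. In WT replicate 1 its 22 reads lay on 3.75% of 1947 bp, about 73.0 bp, where 147 rows of like length and read number (within 20%) had a median of 29.4% covered. HBB was covered over 31.0% of 867 bp there, against a median of 64.0% and a 5th percentile of 13.1% in 121 like rows.

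Of 9 tested iron genes 6 were lower for QQ. Their median was -0.11, and it ran from -0.32 without WT replicate 2 to 0.0046 without QQ replicate 2. The values were -0.058 without WT replicate 1 and -0.27 without QQ replicate 3. The most abundant, the ferritin chains FTH1 and FTL, had WT means of 2447 ± 224 and 335 ± 60.5 RPKM and QQ means of 2169.8 ± 113 and 284 ± 9.79 RPKM (edgeR adjusted p = 0.259 and 0.250). TF, the iron carrier transferrin, also held in the yolk sac list and with a range of 3.29, had 2089, 793 and 2767 reads in WT and 1941, 400 and 3764 reads in QQ embryos. Of 11 tested cytoplasmic genes 10 were lower (median -0.27). That median was -0.077 without WT replicate 1 and -0.061 without QQ replicate 2, whereas leaving out QQ replicate 3 gave -0.41. PRDX2, a peroxidase abundant in red cells and many others, had means of 631 ± 89.2 (WT) and 497 ± 29.7 (QQ) RPKM, and BLVRA, a biliverdin reductase, of 44.9 ± 8.84 and 32.5 ± 5.32 RPKM (edgeR adjusted p = 0.233 for both). CAT and BNIP3L, of antioxidant defence and mitochondrial clearance, had log2 fold changes of -0.089 ± 0.11 and 0.10 ± 0.12. CYGB, a globin outside red cells, had 532, 556 and 564 reads in WT and 702, 503 and 455 reads in QQ embryos, with neither of the globin extremes.

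**Figure D5:**
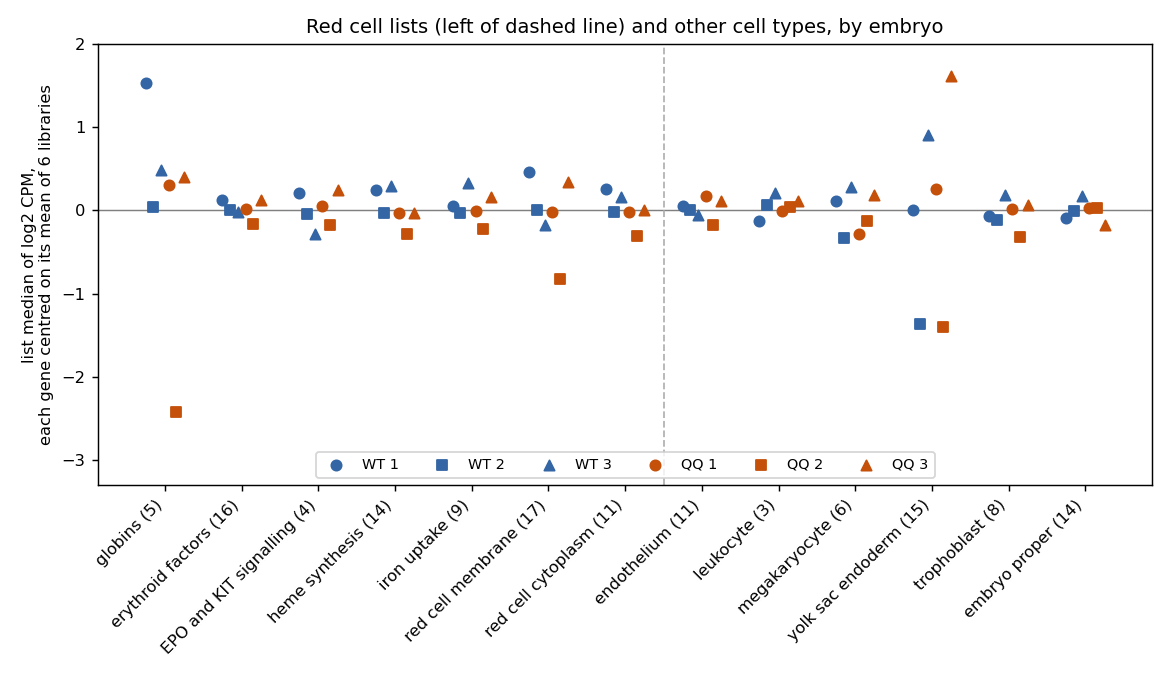
Median over each list's tested genes (number in brackets) of log2 CPM centred on the mean of 6 libraries (vertical axis), for each embryo; the 7 red cell lists stand left of the dashed line and the 6 lists of other cell types right of it. Globins run from -2.43 in QQ replicate 2 to 1.54 in WT replicate 1, and yolk sac endoderm from -1.41 in QQ replicate 2 to 1.61 in QQ replicate 3.

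Markers of other cell types were read in the same libraries. Yolk sac and hepatic endoderm genes also varied widely: 13 of 15 tested genes had a range of at least 2, and the summed level of 18 genes ran from 873 to 1862 RPKM in WT and from 861 to 2692 RPKM in QQ embryos. Its list median was 0.0095, -1.37 and 0.91 in WT and 0.25, -1.41 and 1.61 in QQ embryos. By this median QQ replicate 2 was lowest, as for the globins, but WT replicate 2 was nearly level with it. Most tested genes of the list were lowest in WT replicate 2 or QQ replicate 2, and more of them in WT replicate 2. WT replicate 1, highest in globin, was near the mean. AFP, a yolk sac secretory protein named after its values were seen, had 1150, 182 and 3540 reads in WT and 1474, 331 and 7768 reads in QQ embryos. SERPINA1 and APOE, the most abundant of the list, had ranges of 2.42 and 0.48. VTN and AMBP had at most 3 reads in every library, and the part of this tissue in the globin values was not tested.

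Endothelial, megakaryocyte, leukocyte, trophoblast and body markers had narrower library medians than the globins. So did the other red cell lists. Their library medians ran from -0.16 to 0.13 for blood transcription factors, -0.28 to 0.24 for signalling and -0.29 to 0.29 for heme synthesis. For iron uptake they ran from -0.23 to 0.33, for cytoplasm from -0.31 to 0.26 and for membrane from -0.82 to 0.46. Except for the membrane list, these spans were close to those of the cell types named above. Single genes could depart from these medians. A range of at least 2 was found in 19 of the 75 red cell genes (25.3%), against 4.77% of all tested rows. The theta-globin row, HBZ, HBB, HBM and GATA1 are among these 19. The endothelial list (11 tested of 14 with a row; FLT1 and CLDN5 most abundant) ran from -0.18 in QQ replicate 2 to 0.17 in QQ replicate 1, with a summed level of 55.7 to 64.1 RPKM in WT and 61.1 to 73.2 RPKM in QQ embryos, and TIE1 and CD34 at no more than 3 reads. The leukocyte markers PTPRC and SPI1 had 1 read each over all libraries, and 6 of 11 leukocyte genes had at most 3 reads in every library. LAPTM5 and CORO1A, the most abundant of that list, had log2 fold changes of 0.11 ± 0.17 and 0.23 ± 0.25. The megakaryocyte list, led by THBS1 and GP1BA, ran from -0.33 in WT replicate 2 to 0.28 in WT replicate 3, and the trophoblast list, led by HAND1 and DAB2, from -0.32 in QQ replicate 2 to 0.18 in WT replicate 3. Single trophoblast genes, named after their values were seen, departed far from that median. IFNG, the interferon that the pig trophectoderm secretes, had 50, 143 and 168 reads in WT and 1165, 44 and 1 reads in QQ embryos, a range of 8.55 that exceeds that of every globin. PAG2, a pregnancy-associated glycoprotein below the filter, had 3, 18 and 8 reads in WT and 119, 6 and 1 reads in QQ embryos. Both were highest in QQ replicate 1 and lowest in QQ replicate 3, which are not the extremes of the globins. Markers of somite, neural tube and heart, led by ACTC1 (378 ± 61.3 and 363 ± 35.5 RPKM in WT and QQ embryos) and MYL7, ran from -0.18 in QQ replicate 3 to 0.17 in WT replicate 3, and none of its 14 tested genes had a range of 2.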

How the data were processed

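The deposited table gives, per the file headers, 3 values per Ensembl transcript and library: the count of uniquely mapped reads, the percent of the transcript covered and the RPKM. The deposited counts are whole numbers that add up to the header totals, 12.2 M to 13.5 M reads, with a dash for 0. Deposited RPKM values match counts divided by length and library total (largest relative gap 1.29e-07). The deposited percent covered served only to describe how reads lay on a row. Per the submitters' processing notes the genome build was Sscrofa10.2. The sources used here do not name the aligner, the counting program or the use of strand, so reads of overlapping or antisense genes cannot be told apart.

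The test was edgeR 4.0.16 (R 4.3.3) with TMM factors (0.933 to 1.06) and quasi-likelihood fits. It used the default filter on low rows and Benjamini-Hochberg adjustment over 13958 rows at 0.05. With 3 libraries per group, that filter asks for 15 reads in all and about 10 reads, by its own scaling, in at least 3 libraries. The alpha-globin row, under the filter, was kept in. The SE is the log2 fold change divided by the square root of F. log2 CPM used a prior count of 2. Symbols came from the deposited protein accession, KEGG gene or description through a table of Sscrofa11.1. Where a gene had several rows the one with most reads was used. Named genes were all members; per red cell list, the 3 genes of highest mean RPKM and the pair of lowest unadjusted p; in each other list the 2 most abundant; and the 5 rows nearest in pattern to GATA1 and to the theta-globin row. Some genes that this rule names are not reported here. Members, lists and tests were chosen with earlier results of these data known. The labels name 3 embryos per genotype and no litter; p-values therefore reflect only how these 6 embryos vary. Methods were tested on simulated data. Alternatives were other scalings, no filter, DESeq2 1.42.0, limma 3.58.1 on log2(RPKM + 0.5) and with pseudocounts of 0.1 and 1, the replicate number as a block, each library left out, and the sum of all rows of a gene. Each pair of libraries differed by more than sampling noise (chi-square per degree of freedom at least 7.54). Sequences were not used here.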

Additional observations from a re-analysis of the deposited data

How the results depend on the processing

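No member passed the threshold under any of the alternatives run, and the theta-globin row, HBZ, HBM, HBB and GATA1 stayed below 0 in each of 15. Leaving out 1 library gave log2 fold changes from -1.45 to -0.36 for the theta-globin row, -1.50 to -0.38 for HBZ, -1.09 to -0.014 for HBM, -2.39 to -1.03 for HBB and -1.55 to -0.55 for GATA1. For alpha-globin they ran from -0.65 to 0.058, the last without QQ replicate 2, and the sum of its rows gave -0.82. Adjusted p over these alternatives ran from 0.180 to 0.993. DESeq2 gave no adjusted p for HBM, HBB and alpha-globin. Over all rows edgeR called 0 higher and 0 lower, DESeq2 98 and 8, and edgeR without 1 library 0 to 2 higher and 0 to 1 lower; the cause was not tested. Embryos of the same replicate number were not consistently alike (correlation of deviations -0.19, 0.21 and -0.056 for numbers 1 to 3). Pairs of unlike number ran from -0.17 to 0.22. With so few embryos these values cannot tell whether the numbers mark a shared litter or batch. With the replicate block the values were -1.48 for the theta-globin row, -1.48 for HBZ and -1.16 for GATA1 (edgeR adjusted p = 0.294 each), no call changed, and 2289 rows in place of 2834 had an unadjusted p under 0.05. Members with under 30 reads per library (HBM, HBB, alpha-globin) are limited by depth.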
